A study of Mus musculus with 56 samples.

Results

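SM37 is a modified form of SMART PCR-based cDNA amplification, and its ability to report differences between cell lines was tested in 4 two-color hybridizations of OV against 3T3 cells, out of 56 in the series. OV cells derive from the surface epithelium of the mouse ovary, 3T3 cells are mouse fibroblasts, and neither line was treated. Members were the arrays titled as SM37 hybridizations of different samples, numbered 1 to 4, each with OV and 3T3 cDNA amplified from 10 ng of total RNA by the series' design text and the paper; the sample descriptions give this number with another unit. OV carried Cy5 on arrays 1 and 3 and Cy3 on arrays 2 and 4. Another 3 sets of arrays served for comparison: 4 of OV against 3T3 with SMART cDNA from 10 ng, 4 with unamplified cDNA from 100 μg of total RNA, and 2 in which both channels held OV RNA amplified by SM37 as independent replicas. By the paper, the 4 SM37 arrays hold 2 independent amplifications of each line. All come from the same RNA of 1 line each, so that p-values measure the spread between arrays, not that between cultures. Arrays that share an amplification were treated as independent, so that the spread between amplifications is measured only in part. Except between replicas of OV, ratios are log2 of OV over 3T3, and a positive value means higher in OV. Errors are SD over 4 arrays unless stated.

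SMART uses the terminal transferase activity of reverse transcriptase, which adds bases to the end of a finished first strand so that a second primer can anneal there and the enzyme can switch template. The cDNA then carries a known sequence at both ends and can be amplified exponentially with primers to these ends. In SM37 the primers were changed and reverse transcription was run at a lower temperature than in SMART. Ovarian surface epithelium is a simple epithelium of mesothelial type that covers the ovary, expresses keratins and the transcription factor Wt1, and also makes many matrix and mesenchymal gene products. Fibroblasts of the 3T3 kind are mesenchymal cells that divide rapidly in culture.

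Of 21766 probes that were not controls, 7429 had a value on all 4 SM37 arrays. Single SM37 arrays gave values for 10009 to 12812 probes (mean 11072 ± 1253), against 11030 to 18588 for SMART and 14198 to 18274 for unamplified cDNA. SM37 and unamplified arrays did not overlap in this number (exact two-sided permutation test, p = 0.0286, the smallest that 4 against 4 arrays allow, adjusted p = 0.0714 over 5 tests), and for SMART the ranges overlapped (p = 0.143, adjusted p = 0.179). Signal intensities were not given, so that the depth behind single ratios is unknown. The coefficient of repeatability (CR), 2 SD of the log2 ratios over probes, was 0.847, 0.857, 1.07 and 1.00 on SM37 arrays 1 to 4, 0.476 to 0.781 on SMART arrays and 0.840 to 1.07 on unamplified arrays. The spread of SM37 ratios was thus above that of every SMART array (exact permutation test, p = 0.0286, adjusted p = 0.0714) and overlapped that of unamplified cDNA (p = 0.486). Over probes, arrays 1 and 2 correlated with r = 0.787 and arrays 3 and 4 with r = 0.828. The other 4 pairs of SM37 arrays ranged from 0.639 to 0.715. Probes are not independent replicates, and these correlations describe the arrays.

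The paper gives the direction of the dye ratio both ways. The deposited ratios were read as Cy5 over Cy3, taken as likely from Xist and epithelial markers. The signs of these genes are therefore no check of the direction. Known sex and cell type genes are described after turning. Xist, the RNA that silences an X chromosome in female cells, had ratios of 1.08, 2.75, 3.00 and 2.13 on SM37 arrays 1 to 4, against 4.69, 3.58, 1.57 and 3.00 in unamplified cDNA. All arrays of both sets put Xist higher in OV. The Y-linked demethylase gene Kdm5d was not called at 0.29 ± 0.151 in SM37, and the tumor suppressor gene Cdkn2a lacked a value on all 4 arrays. Of 10 marker genes of ovarian surface epithelium, 4 were measured in SM37, with ratios of 0.38 to 1.54, all above 0. Of these the keratin gene Krt8 was called at 1.54 ± 0.212, while the mesothelial antigen Msln (0.45 ± 0.128), the uroplakin gene Upk1b (0.95 ± 0.556) and Wt1 (0.38 ± 0.211) were not. Of 10 fibroblast markers, 7 were measured, with a median of -0.23. Of these 7, 2 were called lower in OV, the homeobox gene Prrx1 (-1.14 ± 0.321) and the collagen gene Col1a2 (-0.52 ± 0.126). Their unamplified means were -3.33 and -0.03. The collagen genes Col1a1 (0.55 ± 0.484) and Col3a1 (0.09 ± 0.0927) and the surface marker Thy1 (0.10 ± 0.242) had means above 0 in SM37. Over all genes, 4.06% were called higher in OV and 9.3% lower. Of 10 markers of blood, vessel and nerve cells, 4 were measured, at 0.19 to 0.49, and none was called. In RNA of whole cultures, fewer cells of a type and less RNA per cell cannot be told apart.

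Differential expression was called with limma as a log odds of expression difference (LOD) above 0. In SM37 1051 of 7429 probes (14.1%) passed, of which 440 (5.92%) had a higher level in OV and 611 (8.22%) a lower one. With the means of the assumed dye-swap pairs (1 with 2, 3 with 4) in place of 4 arrays, 474 probes were called, and with these pairs as random blocks 938. Averaged to genes, 767 of 5744 (13.4%) were called, of which 233 (4.06%) were higher and 534 (9.3%) lower in OV, while an adjusted p under 0.05 was passed by 43.8% of genes. The number of probes called was 643 without array 4, 694 without array 3, 700 without array 2 and 820 without array 1. The gene nearest above the threshold was Mrps9, a mitochondrial ribosomal protein gene, with a mean of -0.75 ± 0.327, and nearest below it was the metalloprotease gene Adamts9 at 0.75 ± 0.331. Mrps9 lost its call without array 1, 2 or 3 (-0.80 to -0.60), and Adamts9 gained one without array 4 (0.87).

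The genes highest in OV came from several functions. Tmem176b, which encodes a membrane protein known from immune cells, led with 2.39, 2.51, 2.62 and 2.50 on arrays 1 to 4 of SM37, against 3.67, 3.29, 0.96 and 2.08 in unamplified cDNA. The SM37 arrays lay close together, while the unamplified arrays spread widely around nearly the same mean (2.51 ± 0.0953 and 2.50 ± 1.23). Aldh1a1, an enzyme that makes retinoic acid, had 1.98, 1.98, 2.20 and 1.79 in SM37, against 3.62, 3.23, 2.32 and 3.52 in unamplified cDNA, with no overlap. Dcn, the matrix proteoglycan decorin, had 1.87, 1.83, 1.77 and 1.83 in SM37, against 4.15, 3.52, 3.98 and 4.11 in unamplified cDNA. Its SD of 0.0389 in SM37 went with a ratio far below that of unamplified cDNA (difference -2.12, adjusted p = 4.01e-06).

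Further genes high in OV were Ctla2a, an inhibitor of cysteine proteases (1.82 ± 0.313 in SM37 and 3.39 ± 0.398 in unamplified cDNA), and Mgp, an inhibitor of calcification (1.70 ± 0.413 and 2.73 ± 0.509). The small heat shock protein gene Hspb1 had 1.91 ± 0.346 in SM37 and 1.84 ± 0.505 in unamplified cDNA, with overlapping arrays and a difference of 0.07 that did not pass the test (adjusted p = 0.833). Lin7c, which encodes a scaffold protein of cell junctions, stood out by having 2.33, 2.81, 1.66 and 1.31 in SM37, against 0.59, 0.32, 0.01 and 0.55 in unamplified cDNA. Only 1 of its 2 probes had a value on all 4 SM37 arrays, and on the probe common to both targets the difference was 1.44 (adjusted p = 0.00314). Adam5, a testis protein of the ADAM family (1.70 ± 0.112), and Vmn1r30, a receptor gene of the vomeronasal organ (1.73 ± 0.242), completed the 10 highest with Xist. Vmn1r30 was not measured on all 4 arrays of unamplified cDNA.

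The lowest ratio in OV was that of Slco3a1, an organic anion transporter, with -1.61, -1.83, -1.60 and -2.16 in SM37, against -1.16, -0.55, -1.03 and -0.94 in unamplified cDNA. Every SM37 array lay below every unamplified array for this gene (difference -0.88, adjusted p = 0.002). Rgs2, a regulator of G protein signaling, had -1.67, -1.65, -1.24 and -2.43 in SM37, against -3.47, -2.05, -3.87 and -3.30 in unamplified cDNA, and here the ranges overlapped. F3, the tissue factor that starts blood coagulation, had -1.64 ± 0.244 and -1.41 ± 0.241, and the forkhead transcription factor gene Foxc2 had -1.40 ± 0.147 and -1.14 ± 0.360, neither with a difference that passed the test (adjusted p = 0.258 and 0.254). The X-linked homeobox gene Rhox5 had -1.51 ± 0.196 in SM37 and -2.42 ± 0.749 in unamplified cDNA. Gins1, a subunit of the replicative helicase, Tomm5, a small subunit of the mitochondrial import pore, and the homeobox gene Hoxb7 were lower in SM37 than in unamplified cDNA, with differences of -0.86, -0.96 and -0.79 (adjusted p = 0.00114, 0.00068 and 0.00233). Rassf3 (-1.36 ± 0.320), of the Ras association family, and Czib (-1.35 ± 0.348), a zinc binding protein gene, completed the 10 lowest. Adjusted p over all genes was 0.00104 or below for all 20, and none of the 20 lost its call when any 1 array was left out.

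**Figure D1:**
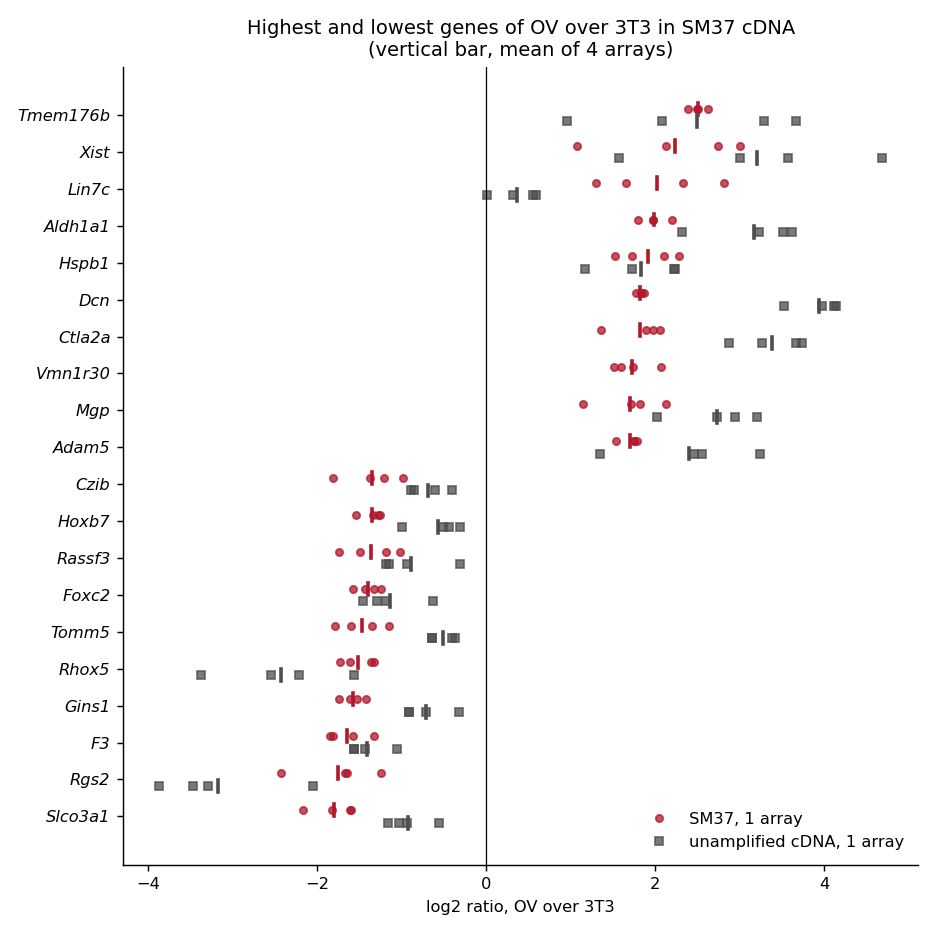
Log2 ratio of OV over 3T3 (horizontal axis) for the 10 highest and the 10 lowest genes called in SM37 cDNA, with each of 4 SM37 arrays as a circle, each of 4 unamplified arrays as a square and means as vertical bars. Dcn, at 1.82 in SM37 and 3.94 in unamplified cDNA, lies among the genes whose arrays do not overlap, and Hspb1, at 1.91 and 1.84, among those whose arrays do.

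Ratios were also read where both channels held OV RNA amplified by SM37. These are log2 of replica 1 over replica 2, so that their sign depends on the order of replicas only. Over 1830 probes measured in both settings, the CR was 0.873 for OV against 3T3, averaged over 4 arrays. It was 0.737 for replica against replica, averaged over 2 arrays. Of 1051 called probes, 239 had a value on both replica arrays, and 4 of these differed over 2-fold between replicas. Their median absolute log2 ratio was 0.744 between cell lines and 0.234 between replicas. These probes were chosen by their ratios between cell lines, so that the larger median there follows from the choice. The mean ratios of both settings correlated with r = 0.237 over probes, with a sign that the order of replicas sets. Among genes named here, Eif4a2 had -0.71 and -0.70 on the replica arrays beside -0.69 ± 0.133 for OV over 3T3, and Lin7c had 0.05 and 1.00. The replica values of Eif4a2 average 2 probes, of which 1 was measured for OV over 3T3. Ctla2a and Ccl2 were close to 0 between replicas (-0.06 and -0.12 for Ctla2a, 0.02 and -0.06 for Ccl2). These replicas rest on 2 arrays with dyes swapped and are given as a description.

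Epithelial and mesothelial genes were the first group of interest, since OV is of this type. Of 15 measured mesothelial genes, 3 were called higher (4.06% of all genes were) and 3 lower (9.3%), with a median ratio of 0.01, against -0.03 over all genes. Without array 4, 2 were called higher and 1 lower. The secreted Wnt activator Rspo1 had 0.72, 1.49, 0.79 and 1.44 in SM37 and lost its call without array 4 (mean 1.00). Its unamplified ratios of 1.23, 0.65, 0.48 and -0.25 overlapped those of SM37. Krt8 had 1.53, 1.27, 1.58 and 1.79 in SM37, against 3.86, 3.41, 2.77 and 3.70 in unamplified cDNA (difference -1.89, adjusted p = 0.000123). Osr1, a zinc finger transcription factor of the urogenital mesenchyme, was lower in OV in both (-0.95 ± 0.312 and -1.18 ± 0.226), and lost its SM37 call without array 4 (mean -0.90). On the same 15 genes, medians of single arrays were -0.02 to 0.25 in SM37 and 0.57 to 0.94 in unamplified cDNA. In unamplified cDNA 8 were called higher and 2 lower, against 494 and 462 of all 5220 genes measured in both. The SM37 ratio was lower than the unamplified one for 9 of the 15 and higher for 1, at an adjusted p under 0.05, a threshold passed by 38.2% of all genes.

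Of 17 measured genes of epithelial junctions, 3 were called higher in OV and none lower (4.06% and 9.3% of all genes were), with a median of 0.30, and 1 was called without array 2 or array 4. F11r, the junctional adhesion molecule A, had 1.37, 1.36, 1.19 and 1.42 in SM37, against 3.80, 3.02, 1.35 and 3.36 in unamplified cDNA. The claudin genes Cldn11 and Cldn3, which form tight junctions, had 0.73 ± 0.237 and 0.64 ± 0.157 in SM37, against 0.00 ± 0.122 and 0.37 ± 0.142 in unamplified cDNA. Cldn11 lost its call without array 2 or array 4 (0.75 and 0.78), and Cldn3 without any of the arrays (0.56 to 0.68). The difference from unamplified cDNA passed the test for Cldn11 (0.73, adjusted p = 0.00187) and not for Cldn3 (0.26, adjusted p = 0.108).

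Of 39 measured genes of fibroblasts and extracellular matrix, 2 were called higher and 5 lower in OV, shares near the 4.06% and 9.3% of all genes, with a median of -0.06. With the dye-swap pairs as random blocks 3 were called lower. Leaving out any array left 1 higher, and leaving out array 1, 3 or 4 left 3, 2 and 2 lower. On the same genes 16 were called higher and 8 lower in unamplified cDNA, against 494 and 462 of all 5220 genes measured in both. Their unamplified median was 0.08. The ratio in SM37 was lower than in unamplified cDNA for 21 and higher for 10, against 1227 and 756 of all 5195 genes tested. Thbs2, a matrix glycoprotein that limits vessel growth, had -1.07, -0.96, -0.87 and -0.85 in SM37, against -0.35, -0.34, -0.31 and -0.26 in unamplified cDNA (difference -0.63, adjusted p = 0.000843). Lox, which crosslinks collagen, had -0.70 and -0.69 on SM37 arrays 1 and 2 and -1.68 and -1.69 on arrays 3 and 4. These values fell in 2 separate pairs, and the call was lost without array 3 or array 4 (mean -1.03 and -1.02). Prrx1, which marks mesenchymal lineages, had -0.85, -1.30, -1.52 and -0.90 in SM37 and -4.06, -2.33, -3.24 and -3.69 in unamplified cDNA.

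Contractile and cytoskeletal genes gave 1 call higher and 3 lower among 20 measured (4.06% and 9.3% of all genes). In SM37 none was called higher with the dye-swap pairs as random blocks, and none higher and 2 lower without array 1, 3 or 4. In unamplified cDNA 6 were called higher and 1 lower, against 494 and 462 of all 5220 genes measured in both. Tpm1, a tropomyosin, had 0.62 ± 0.224 in SM37 and 2.24 ± 0.108 in unamplified cDNA (difference -1.61, adjusted p = 1.63e-05), and lost its call without array 1, 3 or 4 (0.56 to 0.61). Ccn1, a secreted matricellular protein, had -1.12 to -0.78 on the 4 SM37 arrays, against 0.17 to 0.36 in unamplified cDNA (difference -1.19, adjusted p = 5.27e-05), so that the sign was opposite on every array. The actin-binding genes Cnn2 (-0.84 ± 0.240) and Actn1 (-0.88 ± 0.351) were lower in OV in SM37 and near 0 in unamplified cDNA (means of -0.16 and -0.12). Actn1 lost its call without array 1, 3 or 4 (-0.94 to -0.78).

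Of 32 measured cell cycle genes, 10 were called lower in OV (9.3% of all genes were) and none higher, 25 had a mean below 0, and the median was -0.45. The count was 7 with the dye-swap pairs as random blocks and 6 without array 2, 3 or 4. Ube2c, the ubiquitin carrier of the anaphase-promoting complex, had -0.99, -0.99, -1.25 and -1.27 in SM37, against -1.10, -0.77, -1.03 and -0.80 in unamplified cDNA, where the ranges overlapped. Hmmr, a protein of the mitotic spindle, had -0.75, -0.97, -1.22 and -1.14 in SM37, against -1.73, -1.47, -1.76 and -1.72 in unamplified cDNA, with no overlap (difference 0.65, adjusted p = 0.00287). The securin gene Pttg1 (-1.12 ± 0.493) and the spindle checkpoint gene Mad2l1 (-1.08 ± 0.478) had unamplified ratios of -1.25 ± 0.250 and -1.02 ± 0.201. Pttg1 lost its call without array 2 (-1.04), and Mad2l1 without array 3 or array 4 (-1.01 and -0.89). On all 32 genes 19 were called lower and 1 higher in unamplified cDNA, against 462 and 494 of all 5220 genes measured in both. Single-array medians were -0.41 to -0.35 in SM37 and -0.89 to -0.53 in unamplified cDNA. The ratio was higher in SM37 for 13 genes and lower for 1, against 756 and 1227 of all 5195 genes tested.

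Promoters of the 10 called cell cycle genes were read from RefSeq (GRCm38.p6, from 250 bases before to 50 after the start), because genes that peak in mitosis often share a CCAAT box and a cell cycle homology element, searched here on both strands as CCAAT and TTTGAA, which do not overlap. All 10 had a promoter in the table. Of these genes, 6 (Cenpa, Hmmr, Mki67, Racgap1, Ttk and Ube2c) held both motifs and 4 held neither. Among 32851 promoters of the same length, 37.4% held CCAAT, 17.9% held TTTGAA and 6.95% held both. Of 15 measured cell cycle genes that were not called and had a promoter in the table, 12 held both. The promoters of Ube2c (chr2:164769679-164769978, plus strand) and Hmmr (chr11:40733388-40733687, minus strand) are shown as those of the 2 called genes with the highest LOD (5.39 and 3.94), and that of Pttg1 (chr11:43425932-43426231, minus strand), a gene with a ratio as large in both targets, as an example with neither motif. Letters are in capitals for matches to either motif on either strand. CCAATTGG in Ube2c holds overlapping matches on opposite strands, and a match is a description of the sequence only.
Ube2c: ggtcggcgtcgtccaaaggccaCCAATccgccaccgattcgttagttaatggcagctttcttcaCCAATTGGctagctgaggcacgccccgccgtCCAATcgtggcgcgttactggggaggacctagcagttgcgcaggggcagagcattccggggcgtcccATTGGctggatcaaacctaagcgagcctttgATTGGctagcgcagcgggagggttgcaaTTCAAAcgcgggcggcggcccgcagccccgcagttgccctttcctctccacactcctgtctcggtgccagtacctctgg
Hmmr: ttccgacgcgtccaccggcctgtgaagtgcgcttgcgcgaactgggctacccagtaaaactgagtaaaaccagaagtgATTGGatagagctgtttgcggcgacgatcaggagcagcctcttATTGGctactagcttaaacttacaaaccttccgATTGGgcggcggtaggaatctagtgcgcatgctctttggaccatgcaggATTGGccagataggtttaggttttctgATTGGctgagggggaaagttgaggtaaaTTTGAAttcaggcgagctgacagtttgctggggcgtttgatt
Pttg1: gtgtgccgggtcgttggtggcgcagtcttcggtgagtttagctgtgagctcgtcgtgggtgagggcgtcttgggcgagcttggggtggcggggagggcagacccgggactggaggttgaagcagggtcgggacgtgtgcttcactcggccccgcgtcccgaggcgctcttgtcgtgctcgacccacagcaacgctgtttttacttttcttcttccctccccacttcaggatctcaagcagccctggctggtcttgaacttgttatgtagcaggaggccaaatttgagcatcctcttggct

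Of 33 measured genes of DNA replication, 7 were called lower and 1 higher (9.3% and 4.06% of all genes were), with a median of -0.38. Without array 2 or array 3, 3 of them were called lower. Gins1 led the list. Dut, which removes dUTP from the nucleotide pool, had -0.81, -1.15, -1.51 and -1.40 in SM37, against -0.50, -0.38, -0.98 and -0.29 in unamplified cDNA. Lig1, the DNA ligase of replication, had -0.75, -0.69, -1.15 and -0.93 in SM37 while its unamplified ratios lay on either side of 0 (0.24, -0.05, 0.35 and -0.14). The difference for Lig1 was -0.98 (adjusted p = 0.000554). Orc6, a subunit of the origin recognition complex, was called higher, at 0.81, 0.60, 1.73 and 1.17, and it lost its call without array 4 (1.05).

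Enzymes of sterol and fatty acid synthesis are regulated together by SREBP transcription factors. Of 15 measured genes, 5 were called lower in OV (9.3% of all genes were) and none higher, 4 means were above 0 and the median was -0.50. In unamplified cDNA 8 of the 15 were called lower, among them all 5. Over all 5220 genes measured in both, 173 were called lower in both and 330 lower in SM37 only. In the lists with most calls, 9 of 10 called cell cycle genes were called in the same direction in unamplified cDNA. For oxidative phosphorylation this held for 3 of 9, and for DNA replication for 2 of 8. With the dye-swap pairs as random blocks 4 were called in SM37, and without array 1 or array 4, 3 were. Hsd17b7, an enzyme of the late sterol pathway, had -0.99, -1.15, -1.19 and -0.92 in SM37, against -1.43, -0.75, -1.43 and -1.37 in unamplified cDNA. Sc5d, a sterol desaturase, had -0.93, -1.02, -1.24 and -1.01 in SM37 and -0.52, -0.34, -0.59 and -0.64 in unamplified cDNA, with no overlap (difference -0.52, adjusted p = 0.00483). Squalene synthase, Fdft1, had -0.84 ± 0.214 and -0.73 ± 0.214. The fatty acid elongase Elovl6 had -0.75 ± 0.218 in SM37 and -1.53 ± 0.498 in unamplified cDNA (difference 0.78, adjusted p = 0.0165), and lost its call without array 1, 3 or 4 (-0.72 to -0.69). Single-array medians of the list were -0.50 to -0.37 in SM37 and -0.75 to -0.38 in unamplified cDNA.

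Secreted and signaling genes were mixed. Of 20 measured chemokine and inflammatory genes, 3 were called higher and 2 lower (4.06% and 9.3% of all genes were), with a median of 0.21, and without array 1 or array 2 they numbered 2 and 1. The monocyte chemoattractant Ccl2 had 1.59, 1.72, 1.34 and 1.00 in SM37, against 1.93, 1.31, 1.65 and 2.10 in unamplified cDNA, and the chemokine Ccl9 had -1.26, -1.06, -1.74 and -1.11, against -1.55, -0.53, -1.89 and -0.97. Neither difference passed the test (-0.34 with adjusted p = 0.192 for Ccl2, -0.06 with adjusted p = 0.879 for Ccl9). The serum amyloid genes Saa1 and Saa3, acute phase proteins with near-identical copies, had 0.76 ± 0.197 and 0.84 ± 0.391 in SM37, and Saa3 lost its call without array 1, 2 or 4 (0.71 to 0.95). Of 14 measured genes of growth factor binding and imprinting, 3 were called higher and 1 lower (4.06% and 9.3% of all genes were). They were led by Igfbp7, which binds insulin-like growth factors, at 1.14, 1.23, 1.38 and 1.50 in SM37 and 2.11, 1.95, 1.60 and 2.18 in unamplified cDNA. The imprinted genes Sgce (0.68 ± 0.195) and Meg3 (0.65 ± 0.123) and the binding protein gene Igfbp5 (-0.56 ± 0.164) each lost the call without at least 1 array. Sgce did so without array 1, 2 or 3 (0.58 to 0.71), Meg3 without array 2 or 4 (0.59 and 0.64), and Igfbp5 without any of the arrays (-0.60 to -0.48). With the dye-swap pairs as random blocks no member of this list was called lower.

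Of 14 measured interferon and antigen presentation genes, 2 were called higher and 1 lower (4.06% and 9.3% of all genes were), with 1 higher left without any of the arrays. Oas1a, an antiviral enzyme, had 0.80, 1.01, 0.80 and 0.88 in SM37, against -0.07, 0.17, 0.09 and -0.06 in unamplified cDNA (difference 0.84, adjusted p = 0.000256). The ribonuclease gene Isg20 deviated the other way, with -0.68 ± 0.141 in SM37 and 0.21 ± 0.317 in unamplified cDNA (difference -0.89, adjusted p = 0.0014). Tapbp, which helps load peptides on class I molecules, had 0.53 ± 0.0917 and 0.66 ± 0.208, and lost its SM37 call without any of the arrays (0.49 to 0.56).

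Oxidative phosphorylation, glycolysis and translation are used by every cell. Of 38 measured genes of oxidative phosphorylation, 9 were called lower in OV (9.3% of all genes were) and none higher. A mean below 0 was found for 33 of the 38, against 3060 of all 5744 genes, and the median was -0.46. Without array 3 or array 4, 5 and 4 were called lower. On the 36 genes also measured in unamplified cDNA, single-array medians were -0.54 to -0.29 in SM37 and -0.27 to -0.12 in unamplified cDNA. Ndufc2, a subunit of complex I, had -1.12, -0.95, -1.15 and -1.31 in SM37, against -0.52, -0.47, -0.56 and -0.28 in unamplified cDNA (difference -0.68, adjusted p = 0.00122). Other complex I genes were Ndufb3 (-0.82 ± 0.285), which lost its call without array 3 or array 4 (-0.72 and -0.75), and Ndufa10, at -0.89 ± 0.207 in SM37 and -0.85 ± 0.124 in unamplified cDNA. Uqcrc1, of complex III, had -0.96 ± 0.404 and lost its call without array 4 (-0.91).

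Of 23 measured translation factors, 7 were called lower (9.3% of all genes were) and none higher, 22 means were below 0, and the median was -0.37. Without array 3 or array 4, 4 were called. Eif3j1 had -1.14, -1.07, -1.10 and -0.91 in SM37, against -0.68, -0.71, -0.83 and -0.89 in unamplified cDNA. The RNA helicase genes Eif4a1 and Eif4a2 had -0.90 ± 0.211 and -0.69 ± 0.133 in SM37, against -0.52 ± 0.112 and 0.07 ± 0.146 in unamplified cDNA. The unamplified value of Eif4a2 averages 2 probes, and on the 1 probe measured in SM37 it was 0.27. Eif4a2 lost its call without array 2 (-0.64). Eif2s3x, a subunit of the initiator tRNA complex, had -0.85 ± 0.340 in SM37 and 0.02 ± 0.0848 in unamplified cDNA, and lost its call without array 3 or array 4 (-0.85 and -0.90). On the 22 genes measured in both, medians were -0.67 to -0.33 on single SM37 arrays and -0.23 to -0.06 on unamplified arrays. Of their ratios 7 were lower and 1 higher in SM37 than in unamplified cDNA, against 1227 and 756 of all 5195 genes tested.

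Of 39 measured chaperone and proteasome genes, 4 were called lower and 1, Hspb1, higher, shares near the 9.3% and 4.06% of all genes, while 33 means were below 0 and the median was -0.43. The proteasome subunit gene Psmb5 had -1.03, -0.85, -1.46 and -1.01 in SM37, against -0.24, -0.17, -0.24 and -0.06 in unamplified cDNA (difference -0.91, adjusted p = 0.000588). Psma6, another subunit, had -0.87 ± 0.329 and lost its call without array 3 or array 4 (-0.84 and -0.93). The heat shock protein gene Hsph1, at -0.72 ± 0.240 in SM37 and -0.75 ± 0.152 in unamplified cDNA, lost it without array 2, 3 or 4 (-0.73 to -0.62). Without array 3 or without array 4, 1 member was called lower.

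Of 12 measured glycolytic genes, 4 were called lower in OV (9.3% of all genes were) and none higher, with a median of -0.42, and 2 were called lower without array 3. The phosphofructokinase gene Pfkm had -0.91, -0.87, -0.82 and -0.63 in SM37, against -0.18, -0.07, -0.16 and -0.20 in unamplified cDNA (difference -0.65, adjusted p = 0.000841), and Pgam1 deviated likewise (difference -0.63, adjusted p = 0.00419). Pgk1 went the other way, at -0.72, -0.81, -1.61 and -1.63 in SM37 and -1.74, -1.93, -1.73 and -2.04 in unamplified cDNA (difference 0.67, adjusted p = 0.0288), and it lost its call without array 3 or array 4 (-1.06 and -1.05). Pfkl had -0.67 ± 0.218 and lost its call without array 1, 2 or 3 (-0.69 to -0.58). Of 51 measured ribosomal protein genes, 1 was called lower (9.3% of all genes were) and none higher, with a median of -0.19. Without array 2, 3 were called lower, and at an adjusted p under 0.05 14 were lower and none higher. That gene was Rplp0, of the ribosomal stalk, with -0.56, -0.54, -0.90 and -0.67 in SM37 and 0.27, 0.00, 0.21 and 0.05 in unamplified cDNA. Rplp0 lost its call without array 4 (-0.67). Between SM37 replicas of OV it had -0.27 and -0.74, on 1 of its 2 probes.

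Among 26 measured redox and detoxification genes, 6 were called lower and 1 higher (9.3% and 4.06% of all genes were), with a median of -0.12. Without array 4, 3 were called lower, and with the dye-swap pairs as random blocks none was called higher. Catalase, Cat, had -1.05, -1.01, -1.16 and -0.70 in SM37, against -0.28, -0.03, -0.64 and -0.49 in unamplified cDNA. The unamplified values average 2 probes, and on the 1 probe measured in SM37 their mean was -0.47. Gclm, which makes glutathione (-0.89 ± 0.287), Nqo1, a quinone reductase (-0.76 ± 0.119), and Gpx3, a glutathione peroxidase (-0.74 ± 0.164), had unamplified ratios of -0.63 ± 0.242, -0.41 ± 0.223 and -0.57 ± 0.173, and for none of them did the difference pass the test. Gclm lost its call without array 4 (-0.89). Lists of cells that neither line contains gave few values. None of 9 measured blood cell genes was called, with 8 means above 0 and ratios of 0.49 ± 0.210 for Hba-a1 and 0.27 ± 0.105 for Cd4, and of 8 endothelial and neural genes the neuronal cytoskeletal gene Map2 was called lower (-0.70 ± 0.205), a call that was lost without array 2, 3 or 4 (-0.72 to -0.65).

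**Figure D2:**
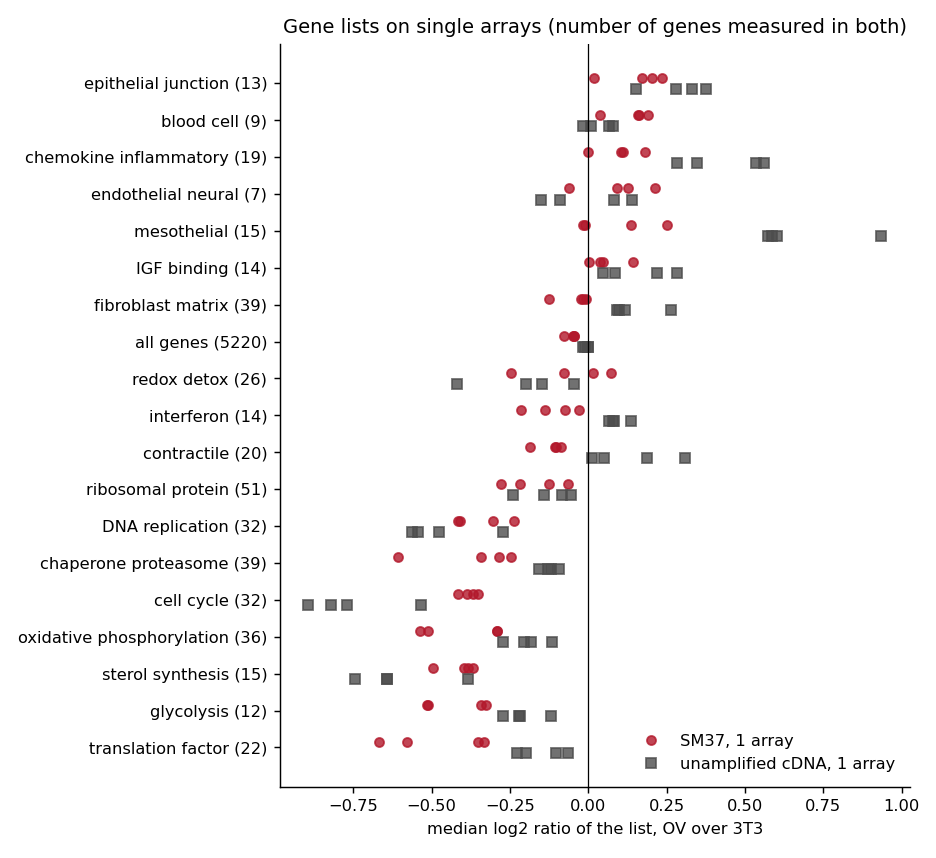
Median log2 ratio of OV over 3T3 (horizontal axis) of each gene list on each of 4 SM37 arrays (circles) and each of 4 unamplified arrays (squares), over the genes measured on all arrays of both, whose number is in brackets. Mesothelial genes lie at -0.02 to 0.25 in SM37 and 0.57 to 0.94 in unamplified cDNA, and translation factors at -0.67 to -0.33 and -0.23 to -0.06.

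Unamplified cDNA gave the reference for these ratios. Over 6401 probes with a value on all 8 arrays, the mean ratios of SM37 and unamplified cDNA correlated with r = 0.462, and the slope of SM37 on unamplified ratios was 0.382 by least squares, 0.668 by an orthogonal fit and 0.612 over probes called in both. Single SM37 arrays correlated with the unamplified mean at r = 0.372 to 0.415 and SMART arrays at 0.370 to 0.677 (exact permutation test, p = 0.143). The deviation of SM37 from unamplified cDNA on arrays 1 and 2 correlated with that on arrays 3 and 4, which share no array, at r = 0.745. It correlated with the deviation of SMART on arrays 3 and 4 at r = 0.637. For SM37 arrays 3 and 4 with SMART arrays 1 and 2, r was 0.480. With slopes below 1, deviations from unamplified cDNA share a part set by the unamplified ratio itself. These correlations do not separate that part from deviations of single genes. Of 937 SM37 calls with a value in unamplified cDNA, 288 (30.7%, exact 95% interval 27.8% to 33.8%, counting error only) were also called there. Of 1108 unamplified calls with a value in SM37, the same 288 made up 26.0% (23.4% to 28.7%), and 276 of the 288 had the same direction. The background is 937 SM37 calls and 1108 unamplified calls among all 6401 probes measured in both. Unamplified calls had a value on all 4 SM37 arrays for 56.4% of 1963 probes, against 49.8% for all 12866 probes measured in unamplified cDNA.

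By genes, 66 were called higher in OV in both targets and 173 lower in both. In SM37 alone 147 were called higher and 330 lower, while in unamplified cDNA alone 420 were called higher and 288 lower. A further 9 genes were called in both with opposite direction. Nr1d1, a nuclear receptor of the circadian clock, was higher in OV in SM37 (0.53 ± 0.0983) and lower in unamplified cDNA (-0.74 ± 0.254). The other 8 were lower in OV in SM37 and higher in unamplified cDNA. They included Cltc, the clathrin heavy chain (-0.53 ± 0.0835 and 0.95 ± 0.156), the homeobox gene Hhex (-0.82 ± 0.181 and 0.40 ± 0.0587), Tnfrsf1b, a receptor of tumor necrosis factor (-0.49 ± 0.0622 and 0.63 ± 0.143), and Golga2, a Golgi matrix protein (-0.86 ± 0.285 and 0.64 ± 0.183). All 9 were picked with their values in view, and the adjusted p of their difference ranged from 1.28e-05 for Cltc to 0.000106 for C1d, a cofactor of the nuclear exosome.

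**Figure D3:**
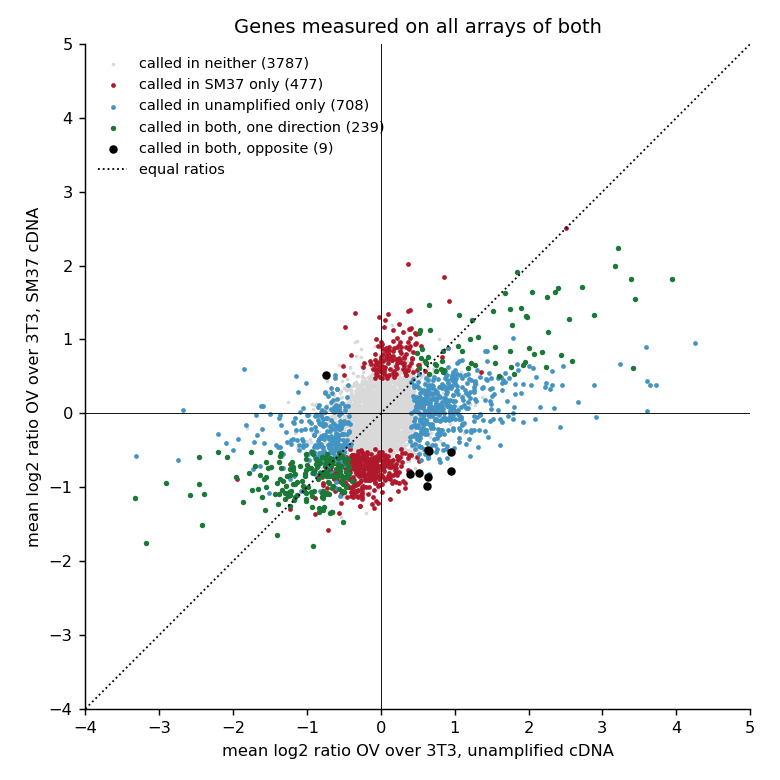
Mean log2 ratio of OV over 3T3 in SM37 cDNA (vertical axis) against unamplified cDNA (horizontal axis) for 5220 genes, each a point colored by the target in which it was called, with a dotted line of equal ratios. Genes called in both in the same direction number 239 and those called in both in opposite directions 9, and the 15 plotted genes out of the top 20 in unamplified cDNA lie nearer to 0 in SM37.

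The difference between SM37 and unamplified ratios passed an adjusted p under 0.05 for 2453 of 6401 probes (38.3%) and 1983 of 5195 genes (38.2%). Of the genes, 1227 had a lower and 756 a higher ratio in SM37, and the arrays of both did not overlap for 1079 of the lower (20.8% of all genes) and 629 of the higher (12.1%). Among the 20 top genes by ratio size in unamplified cDNA, 15 were measured in SM37, 6 were called there in the same direction, 14 had the same sign, and all 15 had a smaller ratio in size, with medians of the absolute log2 ratio of 0.629 in SM37 and 3.33 in unamplified cDNA. These 20 were selected for their size in unamplified cDNA. Trf, the iron carrier transferrin, Cxcl12, a chemokine, Atp1b1, a subunit of the sodium pump, Dlk1, an imprinted inhibitor of fat cell differentiation, and Gstp1, a glutathione transferase, had no value on all 4 SM37 arrays.

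Genes of the surface epithelium were among those with the largest loss of ratio. Wt1 had 0.68, 0.25, 0.23 and 0.35 in SM37, against 4.38, 3.38, 3.50 and 3.32 in unamplified cDNA (difference -3.27, adjusted p = 4.01e-06). Upk1b had 0.64, 0.45, 1.71 and 1.01 in SM37, against 4.50, 4.06, 3.90 and 4.56 (difference -3.30, adjusted p = 1.28e-05). All SM37 arrays thus kept the sign of both genes and lay far below the unamplified range. Cxadr, a receptor at epithelial junctions, had -0.22, 0.06, 0.04 and 0.25 in SM37, against 3.85, 2.88, 3.80 and 3.88 in unamplified cDNA. The unamplified values average 2 probes, of which 1 was measured in SM37, and on that probe the means were 0.03 in SM37 and 3.72 in unamplified cDNA, the largest difference of any named gene (-3.69, adjusted p = 3e-06). The growth factor binding protein Igfbp3 (difference -3.34, adjusted p = 5.42e-05) and the selenium carrier Selenop (difference -3.16, adjusted p = 1.7e-06) had means of 0.39 ± 0.523 and 0.44 ± 0.230 in SM37, against 3.73 ± 0.661 and 3.60 ± 0.287 in unamplified cDNA. In SMART cDNA the means were 0.65 for Wt1, 0.52 for Igfbp3, 0.79 for Cxadr, 1.30 for Selenop and 1.70 for Upk1b. All lay below those of unamplified cDNA, so that a loss of ratio was not particular to SM37. The difference of SM37 from SMART passed the test for Cxadr and Selenop only (adjusted p = 0.00784 and 0.0151).

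Genes that unamplified cDNA put far below 0 also lay nearer to 0 in SM37, or above it. Col8a1, a collagen gene, had -0.55, -1.31, -0.28 and -0.16 in SM37, against -4.41, -1.89, -3.31 and -3.67 in unamplified cDNA (difference 2.75, adjusted p = 0.00083). The water channel gene Aqp1 had -0.16, 0.02, 0.10 and 0.22 in SM37, against -3.78, -2.13, -2.37 and -2.46 (difference 2.73, adjusted p = 9.89e-05). S1pr3, a sphingosine phosphate receptor, had 0.23, 0.81, 0.74 and 0.60 in SM37, against -2.32, -0.82, -2.37 and -1.92, so that all SM37 arrays were above 0 and all unamplified arrays below 0 (difference 2.45, adjusted p = 0.000179). Prrx1 (difference 2.19, adjusted p = 0.000439) and the actin capping gene Capg (difference 2.12, adjusted p = 0.000112) kept their sign, with SM37 means of -1.14 ± 0.321 and -0.63 ± 0.246. Capg was not called in SM37 but was without array 4 (-0.74), and S1pr3 was called higher without array 1 (0.71). In SMART cDNA the means were -0.61 for Col8a1, 0.00 for Aqp1, 0.23 for S1pr3, -0.86 for Prrx1 and -1.32 for Capg. Of these genes only Capg differed between SM37 and SMART by the limma test (adjusted p = 0.0265).
Other genes selected for a large unamplified ratio kept both sign and call in SM37. The cell cycle inhibitor gene Cdkn1a had -0.59 ± 0.0486 in SM37 and -2.46 ± 0.654 in unamplified cDNA, the pluripotency and epithelial factor Klf4 had -0.94 ± 0.288 and -2.91 ± 0.340, and the membrane protein gene Emp1 had -1.10 ± 0.457 and -2.58 ± 0.238. Cdkn1a, which is also the tenth called cell cycle gene although it restrains division, lost its SM37 call without array 1 or 2 (-0.56 and -0.59) and Emp1 without array 2 (-1.13). Gas6, a ligand of TAM receptors, was not called in SM37 (1.30, 1.36, 0.42 and 0.48, against 4.03, 3.64, 2.77 and 3.90 in unamplified cDNA). SMART means were -0.65 for Cdkn1a, -0.94 for Klf4, -1.13 for Emp1 and 1.45 for Gas6. None of these differed from SM37 at an adjusted p under 0.05.

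**Figure D4:**
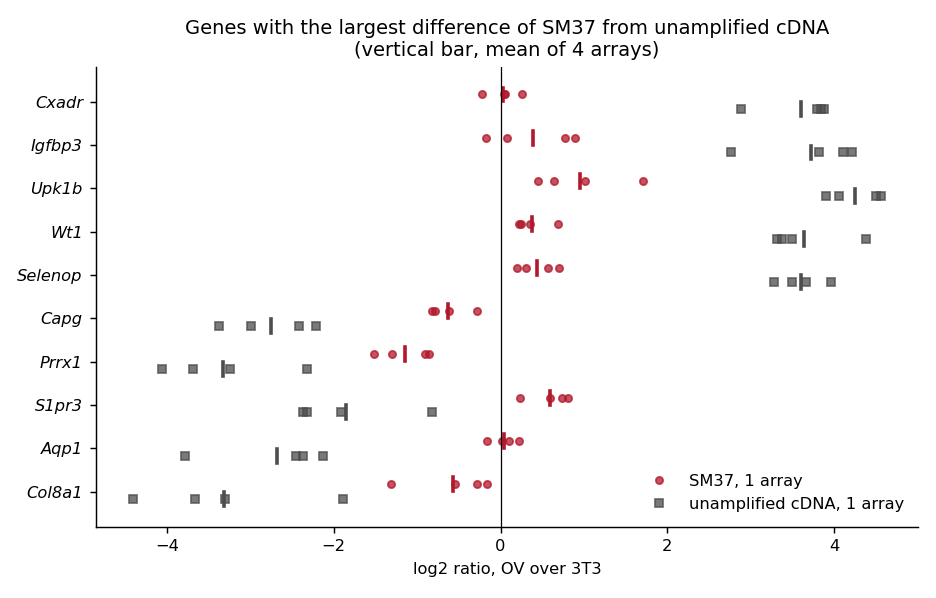
Log2 ratio of OV over 3T3 (horizontal axis) for the 5 genes with the lowest and the 5 with the highest difference of SM37 from unamplified cDNA, with SM37 arrays as circles, unamplified arrays as squares and means as vertical bars. For Cxadr the 4 SM37 arrays lie at -0.22 to 0.25 and the unamplified arrays at 2.88 to 3.88.

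SMART, from which SM37 differs in primers and in the temperature of reverse transcription, started from the same amount of RNA. Over 5314 probes the mean ratios of SM37 and SMART correlated with r = 0.527, and on 5006 probes measured by all 3 methods r with unamplified cDNA was 0.464 for SM37 and 0.744 for SMART. The difference between SM37 and SMART passed an adjusted p under 0.05 for 978 of 5314 probes (18.4%) and 797 of 4413 genes (18.1%), 242 with a higher and 555 with a lower ratio in SM37, without overlap of arrays for 215 (4.87% of genes) and 471 (10.7%). The number of probes was 585, 441 and 458 without SMART arrays 1, 2 and 3, but 1375 without SMART array 4. It was 877, 729, 623 and 595 without SM37 arrays 1 to 4. Array 1 of SMART correlated with other SMART arrays as low as r = -0.09.

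Where SM37 and SMART parted most, SMART lay nearer to the unamplified mean than SM37 did for each gene given here except Rnf213. Diaph3, a formin that nucleates actin, had -1.25, -1.21, -0.89 and -1.32 in SM37, against 0.41, 0.72, 0.30 and 0.21 in SMART (difference -1.58, adjusted p = 0.000775) and a mean of 0.12 ± 0.423 in unamplified cDNA. Fah, the last enzyme of tyrosine breakdown, had -1.01 ± 0.188 in SM37, against 0.32 ± 0.202 in SMART (difference -1.33, adjusted p = 0.000916) and 0.33 ± 0.313 in unamplified cDNA. Cd82, a tetraspanin, had -0.11, 0.35, -1.04 and -0.87 in SM37, against 0.56, 1.39, 1.13 and 1.28 in SMART (difference -1.51, adjusted p = 0.00627). Its mean in unamplified cDNA was 1.15 ± 0.193. Slco3a1 was likewise lower in SM37 than in SMART, with a difference of -1.50 (adjusted p = 0.000775). Its means were -0.30 in SMART and -0.92 in unamplified cDNA. In the other direction, Rnf213, an E3 ubiquitin ligase, had 0.75, 0.87, 1.49 and 0.92 in SM37, against -0.22, -0.35, -0.17 and -0.22 in SMART and 1.62, 0.81, 1.12 and 1.26 in unamplified cDNA. For this gene SM37 overlapped unamplified cDNA and SMART did not. Lin7c (difference 1.95, adjusted p = 0.00153), the F-box gene Fbxo4 (difference 1.35, adjusted p = 0.00213) and Prph, an intermediate filament of peripheral neurons (difference 1.31, adjusted p = 0.00772), were higher in SM37 than in SMART. On the Lin7c probe measured in SM37, means were 0.07 in SMART and 0.59 in unamplified cDNA. The same means were -0.18 and -0.49 for Fbxo4, and 0.08 and 0.39 for Prph. Fbxo4 (1.17 ± 0.451) and Prph (1.40 ± 0.647) lost their SM37 calls without array 4 (1.12 and 1.21), and Prph also without array 3 (1.21).

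On lists, oxidative phosphorylation had a median of -0.47 in SM37 and -0.08 in SMART over 34 genes measured in both, with 8 genes lower and none higher in SM37. Chaperones and proteasome subunits had -0.43 in SM37 and -0.11 in SMART over 39 genes, with 7 lower and 1 higher, and translation factors had -0.37 and -0.12 over 23 genes, with 6 lower and none higher. For cell cycle genes the medians were -0.59 in SM37 and -0.29 in SMART over 25 genes, with 4 lower and none higher. Over all 4413 genes the medians were -0.05 in SM37 and 0.01 in SMART, with 555 genes lower and 242 higher in SM37.

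A class of probes noticed in the values had medians above 0. Of 5134 probes without a single gene symbol, 1360 were measured in SM37, with medians of 0.13, 0.13, 0.13 and 0.14 on arrays 1 to 4 and 65.4% of means above 0. The 6069 measured probes with 1 symbol had medians of -0.03, -0.02, -0.05 and -0.03 and 47.4% of means above 0. The same class had medians of -0.01 to 0.04 on unamplified arrays and -0.03 to 0.09 on SMART arrays. Odorant, vomeronasal and taste receptor genes, which are expressed in sensory neurons and in few other cells, gave 76 measured probes of 192 in SM37, with medians of 0.27, 0.13, 0.36 and 0.13. Of these 76, 68 (89.5%) had a mean above 0, against 52.9% of 34 in SMART and 64.4% of 73 in unamplified cDNA. Vmn1r30, among the 10 highest genes, is of this kind. Both classes were chosen after the values were seen and are given as a description, with no test.

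**Figure D5:**
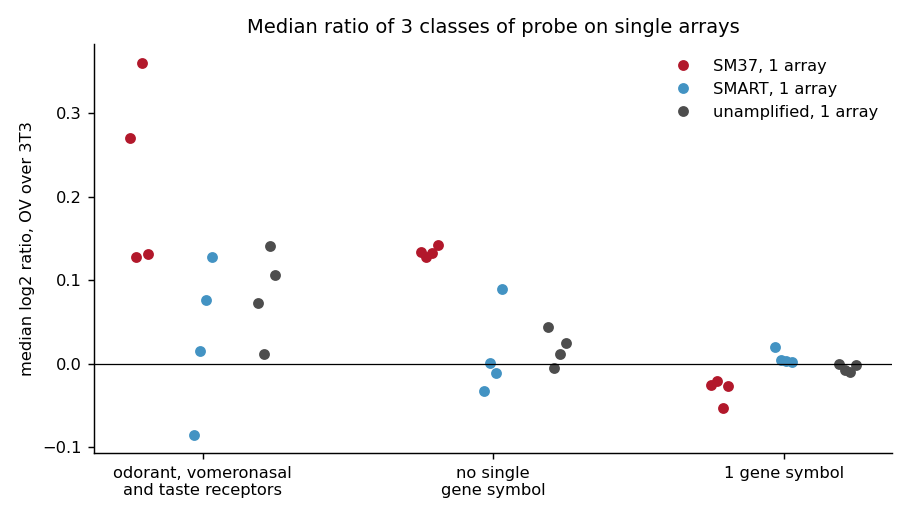
Median log2 ratio of OV over 3T3 (vertical axis) of 3 classes of probe, with each point 1 array of SM37, SMART or unamplified cDNA restricted to probes measured on each array of that method. Probes without a single gene symbol lie at 0.13 to 0.14 on all 4 SM37 arrays.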

How the data were processed

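Total RNA of OV and 3T3 cells was amplified and labeled by the authors and hybridized to two-color arrays of mouse 65-mer oligonucleotides. The authors subtracted background, applied print-tip lowess to single arrays with limma (version not given in the sources used here) and deposited 1 log2 ratio per probe and array, which was used unchanged. Intensities were not used here, and no source says why some values are missing.

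Members and gene lists were chosen with earlier results of these data known. Ratios were turned to OV over 3T3 by the dye labels. Of 21997 probes, 231 controls were left out. Of the rest, 16632 have 1 gene symbol in the platform annotation, 139 have several and 4995 have none. Ratios of probes that share 1 symbol were averaged, giving 15063 genes on the array. RefSeq tables gave promoters and old gene names.

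Differences were fitted over all probes, or all genes, with a value on every array of the comparison, with limma 3.58.1 in R 4.3.3 (lmFit, eBayes, prior proportion 0.01). Calls are an LOD above 0 for OV against 3T3, and a Benjamini-Hochberg adjusted p under 0.05 for differences between methods. Fits and permutation tests took arrays as independent, and differences between methods were not refitted on means of dye-swap pairs. Single values per array were compared by exact two-sided permutation tests with scipy 1.17.1. Tested on simulated SM37 arrays of 7429 probes, 43.3% of log2 changes of 0.5 and 98.5% of changes of 1 were called, with 3 false calls. For the difference from unamplified cDNA, on 6401 probes, the shares were 43.3% and 97% with 9 false calls. The rate of false calls on the real SM37 arrays, which share amplifications, was not tested.

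Genes named are the 10 highest and 10 lowest called in SM37 with the same sign on 4 arrays, clone names left out. The same rule was applied to unamplified cDNA. From each list its called members were taken (4 at most, or 2 members if none was called). Up to 5 genes in each direction that differ most from unamplified cDNA and 4 from SMART without overlap were taken. The genes next to the LOD threshold and sex-linked genes were also named. Genes of opposite calls and fixed cell type markers were added. Alternatives changed the missing value filter, threshold, prior, variance moderation, dye term, scaling, centring, dye-swap pairs, features and arrays left out. The labels give no dye-swap pairs, so 1 with 2 and 3 with 4 were assumed.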

Additional observations from a re-analysis of the deposited data

Results flagged for a closer look

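Among 123 groups of 4 values tested for a value far from the other 3, 5 were found, and chance gives about 1 in 20. Adam5 was low on SM37 array 2 (1.54, the others 1.75 to 1.78) and Cldn11 was high on array 3 at 1.08 (the others 0.58 to 0.67). On SM37 array 3 the median of fibroblast and matrix genes was -0.127, that of endothelial and neural genes -0.0497 and that of all genes -0.0589, each below the other 3 arrays.

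SM37 ratios differed from unamplified ratios for 2453 probes and from SMART ratios for 978 probes, by the limma test of the difference itself. Against unamplified cDNA the differences were lower in SM37 for Cxadr (-3.69), Igfbp3 (-3.34), Upk1b (-3.30), Wt1 (-3.27) and Selenop (-3.16), and higher for Col8a1 (2.75), Aqp1 (2.73), S1pr3 (2.45), Prrx1 (2.19) and Capg (2.12). Against SMART they were lower in SM37 for Diaph3 (-1.58), Cd82 (-1.51), Slco3a1 (-1.50) and Fah (-1.33), and higher for Lin7c (1.95), Fbxo4 (1.35), Prph (1.31) and Rnf213 (1.25).

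Genes called in opposite directions had mean ratios of 0.53 in SM37 and -0.74 in unamplified cDNA for Nr1d1, -0.81 and 0.51 for C1d, -0.53 and 0.95 for Cltc, -0.78 and 0.95 for Crisp3, and -0.86 and 0.64 for Golga2. Hhex had -0.82 and 0.40, Tmem39a -0.99 and 0.63, Tnfrsf1b -0.49 and 0.63, and Zfp706 -0.51 and 0.65. The causes of these differences were not tested.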

How the results depend on the processing

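The number of SM37 calls was 1051, and 3311 at an adjusted p under 0.05, 1931 with a prior proportion of 0.05, 474 with means of the assumed dye-swap pairs and 643 to 820 when 1 array was left out. Robust moderation, a dye term, scaling, centring, random blocks, control probes, genes and values on at least 3 arrays kept it within 767 to 1210. By genes 30.4% of calls were higher in OV, and by probes 41.9%. The difference from unamplified cDNA (2453 probes) was 830 at an LOD above 0 and 1826 to 2360 without 1 array, and that from SMART (978 probes) was 287 at an LOD above 0, 463 with arrays scaled to 1 spread and 441 to 1375 without 1 array. The correlation with unamplified cDNA (0.462) was 0.430 by Spearman and 0.441 to 0.468 without 1 array. The slope (0.382) was 0.668 by orthogonal fit, 0.612 over probes called in both and 0.372 to 0.388 without 1 array. Shared calls (30.7%) were 55.6% at an adjusted p under 0.05, 34.5% among the 500 probes of highest LOD and 32.1% to 32.7% without 1 array, and the CR (0.891) was 0.855 to 0.939. Of 85 called genes named by the rule, 32 lost the call with random blocks, scaling, centring or 1 array left out. Other alternatives, such as means of the assumed dye-swap pairs and a dye term, were not applied to single genes. The causes of these shifts were not tested.

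Arrays of different methods share only a number. Deviations of same-numbered arrays correlated at -0.01 to 0.12 between SM37 and unamplified cDNA and 0.06 to 0.27 between SM37 and SMART. With the replicate number as a block, 2338 probes differed from unamplified cDNA and 1130 from SMART. Precision is limited by 4 arrays of 1 RNA per line, by missing intensities, and by probes without a value on all arrays.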
